A study of Canis lupus familiaris with 13 samples.

Results

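The SLC25 mitochondrial carriers are described here in biceps femoris muscle of the dog. Members were the protein-coding genes named SLC25A and a number, leaving out SLC25A20 and SLC25A37, and 39 of the 30951 genes in the table met this rule with no repeated symbol. SLC25A3, the phosphate carrier, was not analysed here. The RNA came from small biopsies of 4 wild-type dogs aged 9 to 10 months, taken under local anaesthesia. Insulin-stimulated muscle gave 10 libraries, namely sample 1 and sample 2 of dogs 1 to 4 and sample 3 of dogs 1 and 2. Basal muscle gave 3 libraries, sample 0 of dogs 2, 3 and 4, so dog 1 had no basal library. The labels give neither the insulin dose nor the time. They do not say whether a sample number stands for a time or a day, so the numbers are used as names. All basal libraries were sample 0 and no insulin library was, so stimulation cannot be told apart from sample number.

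Carriers of this family sit mostly in the inner mitochondrial membrane, which is otherwise closed to charged metabolites, and exchange nucleotides, keto acids, amino acids and cofactors between the matrix and the cytosol. In muscle they are best known for the export of ATP by the adenine nucleotide translocases and for the malate-aspartate shuttle, which carries the reducing power of cytosolic NADH into the matrix. Others bring in the cofactors on which matrix enzymes depend.

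Library totals lay between 45200416 and 81948641 counts, and levels are given as CPM (counts scaled to a common library total) on library totals adjusted by the TMM method of edgeR. CPM are not adjusted for gene length, so they compare libraries and not genes. In bulk muscle, fewer cells of a type and less RNA per cell cannot be told apart. The 10 skeletal muscle markers summed to 256669 to 423394 CPM in insulin libraries and to 252415 to 328071 CPM in basal libraries, and none of them was at 0. Sample 2 of dog 1 stood apart, with a mean correlation to the other libraries of 0.933 against 0.95 to 0.969 for the rest. It was the highest or lowest of the 13 libraries for 14 of the 37 carriers tested, where 39.3% of all genes tested did the same. The basal sample of dog 3 was the highest or lowest for 9 of 37, against 26.8% of all genes, and held the lowest values of SLC25A4, SLC25A5, SLC25A25 and SLC25A30. It also had the lowest muscle marker sum, at 252415 CPM, and the highest sums of neutrophil, adipocyte, endothelial, fibroblast and macrophage markers.

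The library kit does not mark strand, so reads of overlapping genes cannot be told apart. In RefSeq on another dog assembly, UU_Cfam_GSD_1.0, 17 of the 39 carriers overlap another gene, among them SLC25A4, SLC25A11, SLC25A12, SLC25A13, SLC25A16, SLC25A24, SLC25A25, SLC25A26, SLC25A43, SLC25A44 and SLC25A48.

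All 39 carriers had at least 1 count, and 37 passed the low-count filter. SLC25A45 reached at most 3 counts, in 5 libraries, and SLC25A53 at most 3 counts, in 2 libraries. A count of 0 at these depths allows up to 3 counts, which is 0.0366 to 0.0664 CPM on unadjusted totals, and this limit covers counting error only. Of the 39 carriers, 30 averaged at least 1 CPM. The other 9 were SLC25A2, SLC25A18, SLC25A23, SLC25A27, SLC25A35, SLC25A41, SLC25A45, SLC25A47 and SLC25A53. All carriers together summed to 7631 ± 1127 CPM in insulin libraries (SD, n = 10) and to 7180 ± 1064 CPM in basal libraries (SD, n = 3), and the ranges overlapped.

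Under insulin, no carrier passed the threshold of an adjusted p under 0.05 in edgeR, the main test. DESeq2 called SLC25A25 and SLC25A30 among 104 genes in all. The largest difference in a carrier averaging at least 1 CPM was in SLC25A25, a calcium-regulated exchanger of ATP-magnesium for phosphate. It averaged 44.5 ± 17.5 CPM in insulin libraries (SD, n = 10) and 12.6 ± 3.24 CPM in basal libraries (SD, n = 3). SLC25A30, a carrier of the uncoupling protein branch described first in mouse kidney, averaged 55.1 ± 8.65 CPM in insulin libraries (SD, n = 10) and 29.0 ± 8.16 CPM in basal libraries (SD, n = 3). The translocase SLC25A4 and the shuttle carriers SLC25A11 and SLC25A12 overlapped between the groups.

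The comparison of insulin with basal muscle was fitted in edgeR with the dog as a block. Dog 1 had no basal library, so the fitted fold changes rest on the 7 insulin and 3 basal libraries of dogs 2 to 4. Libraries of dog 1 enter the estimate of spread, and also the CPM means over 10 insulin libraries. The comparison called 0 of 37 carriers, where 0.137% of all 14629 genes tested were called. DESeq2 called those 2 carriers among 104 genes in all. At an unadjusted p under 0.05, edgeR gave 5 of 37 carriers, against 4.12% of all genes tested. They were SLC25A25 and SLC25A30 with positive differences, against 1.68% of all genes, and SLC25A16, SLC25A27 and SLC25A33 with negative ones, against 2.44%. The log2 fold change was above 0 in 22 of 37 carriers, against 49.8% of all genes, and its median was 0.03 over the carriers and -0.00 over all genes. It was 0.5 or more in either direction in 9 carriers, against 17% of all genes, and 5 of these 9 averaged below 1 CPM.

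**Figure D1:**
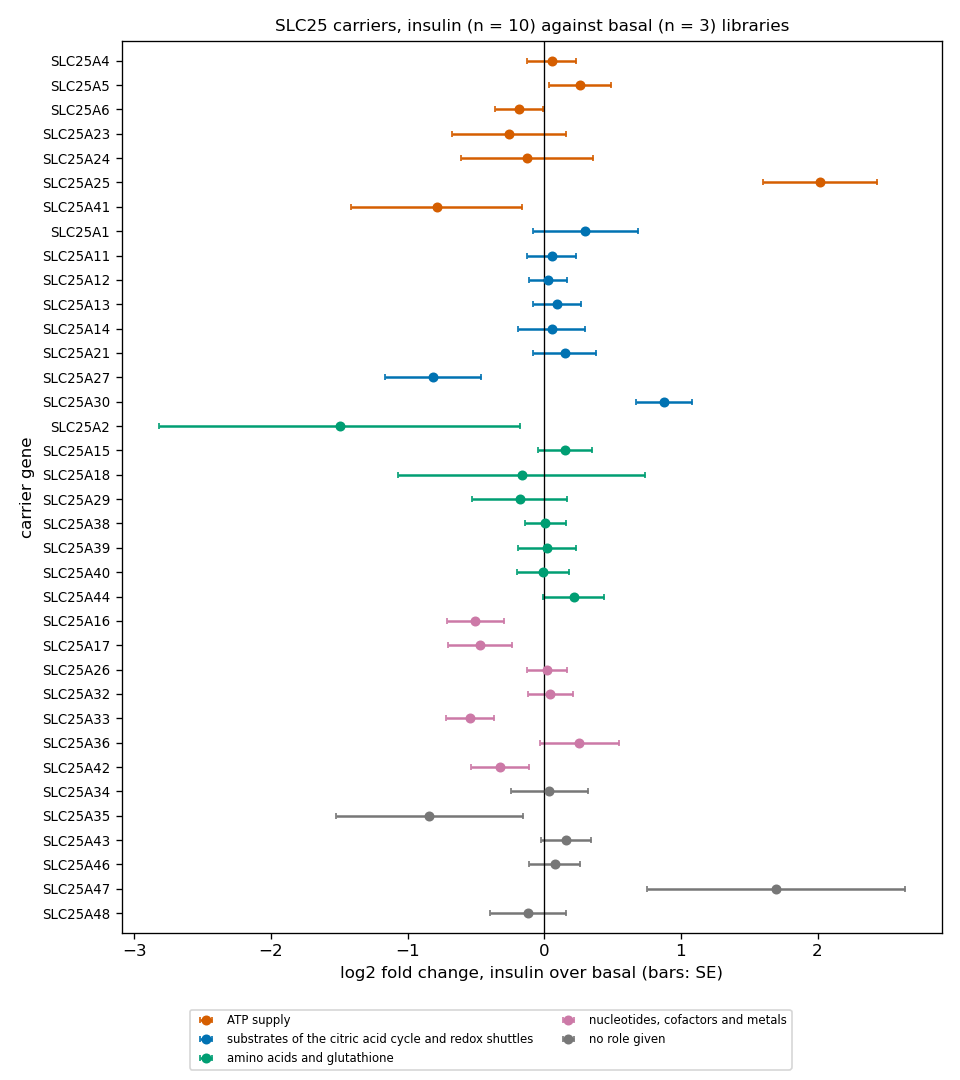
Log2 fold change of insulin over basal muscle for 36 of the 37 carriers tested, with bars for the standard error and colours for the role (10 insulin and 3 basal libraries). SLC25A25 lies at 2.02 and SLC25A30 at 0.88, while the wide bars of SLC25A2 and SLC25A47 belong to carriers averaging below 1 CPM.

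The ATP supply group held 7 carriers, of which 0 passed in edgeR, 1 passed in DESeq2 (SLC25A25) and 3 had a positive difference. SLC25A4, the adenine nucleotide translocase of heart and skeletal muscle, took between 73.4 and 77.9% of the reads of all 39 carriers in each library, a share of reads and not of molecules. It had 4874, 5479 and 7976 CPM as lowest, median and highest insulin libraries, and 5460, 4574 and 6378 CPM in basal libraries of dogs 2, 3 and 4. Its groups overlapped, and only sample 2 of dog 1 lay above every basal library. Its fold change was 1.04, with a 95% interval of 0.793 to 1.36 (adjusted p = 1).

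SLC25A5, the translocase of dividing cells, had 15.8, 18.9 and 45.6 CPM as lowest, median and highest insulin libraries, and 15.7, 14.2 and 15.7 CPM in basal libraries of dogs 2, 3 and 4. All 10 insulin libraries lay above every basal one, though the lowest did so by less than 0.1 CPM, and the highest was sample 2 of dog 1. The log2 fold change was 0.26 ± 0.23 (SE, adjusted p = 1). SLC25A6, another translocase, averaged 11.6 ± 1.51 CPM in insulin libraries (SD, n = 10) and 13.4 ± 3.59 CPM in basal libraries (SD, n = 3). The translocases are close in sequence, and how reads matching several genes were counted is not given in the sources used here.

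SLC25A25 had 10.4, 46.2 and 71.7 CPM as lowest, median and highest insulin libraries, and 15.9, 9.39 and 12.7 CPM in basal libraries of dogs 2, 3 and 4. All 7 insulin libraries of dogs 2 to 4 lay above every basal library, as did those of SLC25A5 and SLC25A30. This held for 3 of 37 carriers and for 0.649% of all genes tested, and the opposite order for 0 carriers and 0.964% of all genes. The insulin libraries of dog 1, which had no basal partner, held 21.8, 10.4 and 55.5 CPM in samples 1, 2 and 3, and sample 2 lay within the basal range.

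The mean of the insulin libraries of SLC25A25 was 3.31, 5.22 and 4.03 times the basal value within dogs 2, 3 and 4. The fitted fold change was 4.05, with a 95% interval of 2.17 to 7.56, and the adjusted p was 0.110. The adjusted p was 0.0024 without dog 1, 0.0162 without sample 2 of dog 1 and 0.00862 without sample 3 of dog 1, while the log2 fold change lay at 2.02 in each. Without the basal sample of dog 3 the log2 fold change was 1.86, with an adjusted p of 0.541. With counts summed per dog, SLC25A25 did not pass. DESeq2 gave an adjusted p of 4.59e-05, and the other alternatives that kept the low-count filter gave up to 0.773. The fit without that filter gave 1.24e-15 here but 1 for each of insulin samples 1 and 2 against basal, at log2 fold changes of 2.09 and 1.82, so its p-values for this gene are doubtful.

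**Figure D2:**
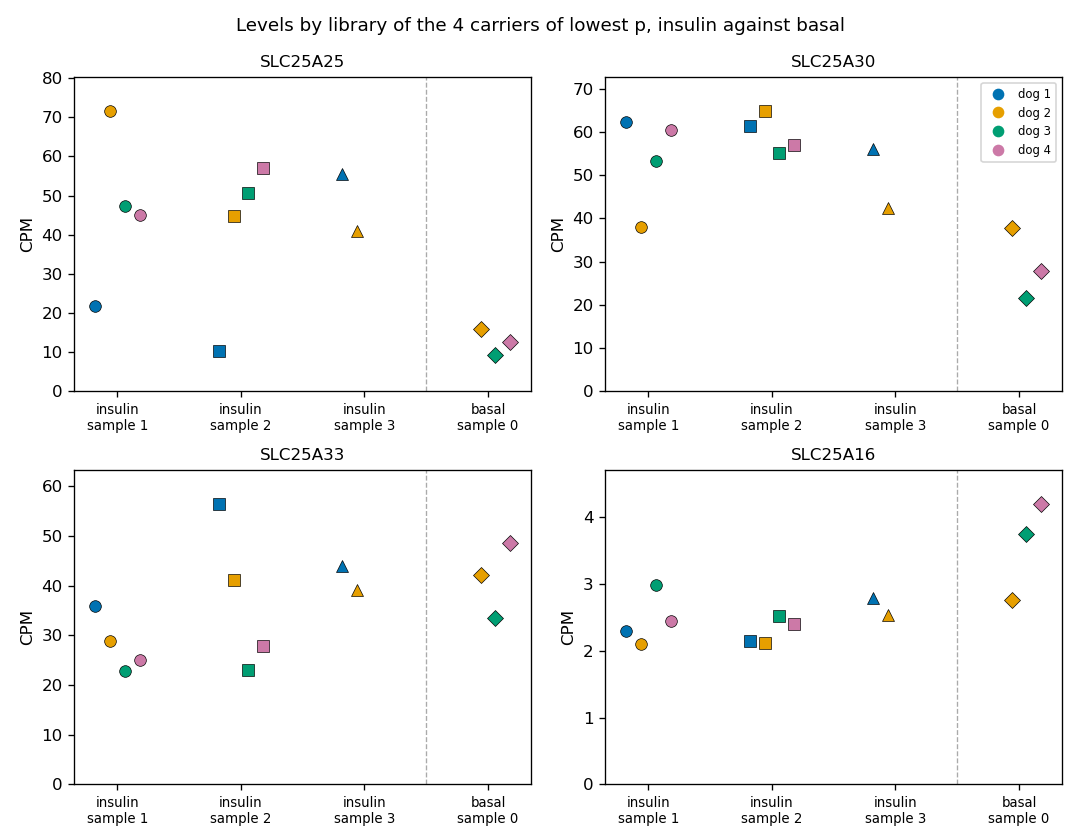
CPM in each library of the carriers averaging at least 1 CPM with the lowest p for insulin against basal muscle, by sample number (symbols) and dog (colours). SLC25A25 and SLC25A30 average 44.5 and 55.1 CPM in insulin libraries against 12.6 and 29.0 CPM in basal libraries, and SLC25A33 and SLC25A16 average 34.4 and 2.44 CPM in insulin libraries against 41.4 and 3.57 CPM in basal libraries.

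The group of citric acid cycle substrates and redox shuttles held 8 carriers, of which 0 passed in edgeR, 1 passed in DESeq2 (SLC25A30) and 7 had a positive difference. SLC25A11 exchanges 2-oxoglutarate for malate, and SLC25A12 exchanges aspartate for glutamate; both are arms of the malate-aspartate shuttle. SLC25A11 averaged 940 ± 209 CPM in insulin libraries (SD, n = 10) and 847 ± 119 CPM in basal libraries (SD, n = 3). SLC25A12 averaged 438 ± 44.4 CPM in insulin libraries (SD, n = 10) and 443 ± 21.5 CPM in basal libraries (SD, n = 3). Both overlapped between groups, and the 95% intervals of the fold change were 0.794 to 1.36 for SLC25A11 and 0.828 to 1.26 for SLC25A12 (adjusted p = 1 for both). SLC25A12 was the steadiest carrier, with a coefficient of variation of 9.00% over the 13 libraries, where the median was 24.3% over the carriers averaging at least 1 CPM and 24.9% over all such genes.

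**Figure D3:**
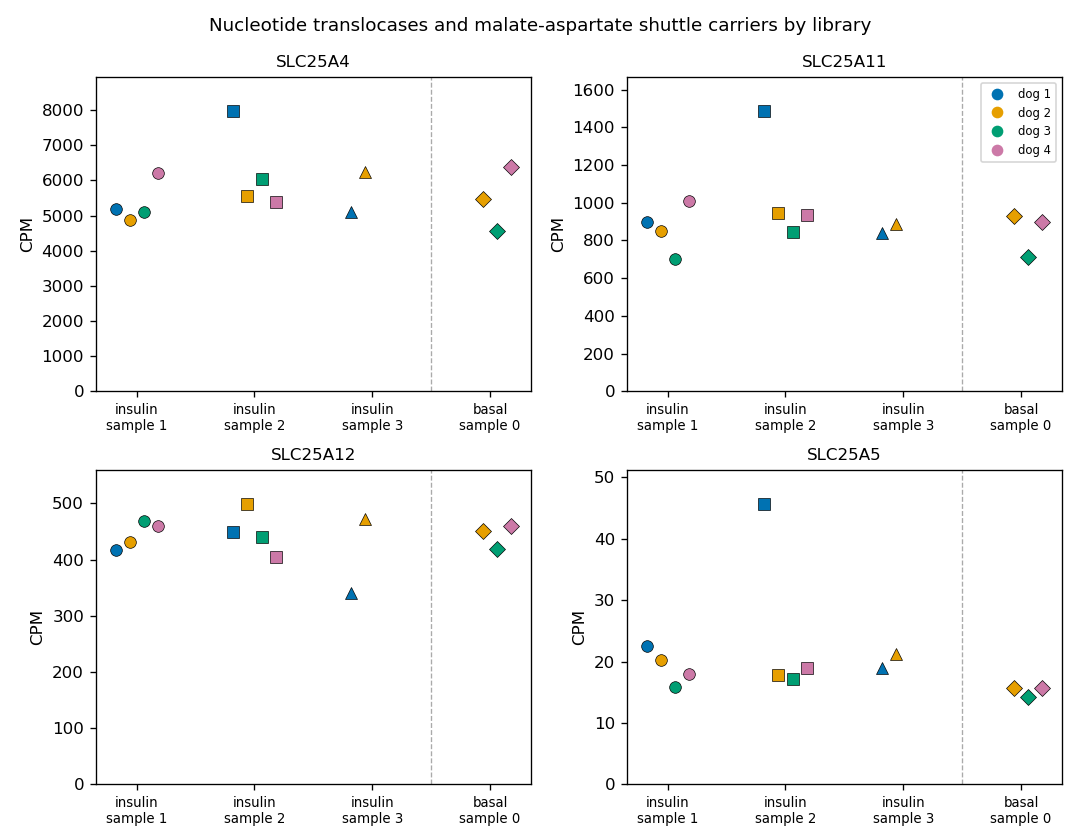
CPM in each library of the translocases SLC25A4 and SLC25A5 and the malate-aspartate carriers SLC25A11 and SLC25A12, by sample number (symbols) and dog (colours). Sample 2 of dog 1 is the highest library for SLC25A4 (7976 CPM), SLC25A11 (1487 CPM) and SLC25A5 (45.6 CPM), and the groups overlap for SLC25A4, SLC25A11 and SLC25A12.

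SLC25A30 had 38.1, 56.5 and 64.9 CPM as lowest, median and highest insulin libraries, and 37.7, 21.5 and 27.8 CPM in basal libraries of dogs 2, 3 and 4. All 10 insulin libraries lay above every basal library, which held for 2 of 37 carriers (SLC25A5 and SLC25A30) and for 0.321% of all genes tested; the lowest of them was sample 1 of dog 2, level with that dog's basal library. None of the 37 carriers tested had all 10 insulin libraries below every basal one, against 0.608% of all genes. The mean of the insulin libraries was 1.29, 2.52 and 2.11 times the basal value within dogs 2, 3 and 4.

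The fitted fold change of SLC25A30 was 1.84, with a 95% interval of 1.35 to 2.49 and an adjusted p of 0.204. It passed without dog 2 (adjusted p = 0.0375), in DESeq2 (0.0151) and without the low-count filter (0.00727), and in none of the other alternatives. With counts summed per dog, the edgeR adjusted p was 0.732 at a log2 fold change of 0.92. Without the basal sample of dog 3 the log2 fold change was 0.68, with an adjusted p of 0.709, against 0.88 with it. SLC25A27, a brain carrier of the same branch, averaged 0.813 ± 0.308 CPM in insulin libraries (SD, n = 10) and 1.38 ± 0.414 CPM in basal libraries (SD, n = 3). It is named after its values were seen, as one of the 5 carriers at an unadjusted p under 0.05.

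The amino acid and glutathione group held 8 carriers, of which 0 passed in either tool and 4 had a positive difference. SLC25A38, which brings in glycine for haem synthesis, averaged 18.5 ± 1.89 CPM in insulin libraries (SD, n = 10) and 18.5 ± 2.08 CPM in basal libraries (SD, n = 3). SLC25A39, an importer of glutathione, averaged 47.0 ± 11.4 CPM in insulin libraries (SD, n = 10) and 48.6 ± 5.37 CPM in basal libraries (SD, n = 3). SLC25A44, a carrier of branched-chain amino acids, averaged 10.5 ± 2.56 CPM in insulin libraries (SD, n = 10) and 8.81 ± 2.62 CPM in basal libraries (SD, n = 3). The adjusted p was 1 for each of these.

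The group of nucleotides, cofactors and metals held 8 carriers, of which 0 passed in either tool and 4 had a positive difference. SLC25A33, a pyrimidine nucleotide carrier that insulin-like growth factor raises in human cell lines, had 22.8, 32.4 and 56.4 CPM as lowest, median and highest insulin libraries. Its basal libraries had 42.1, 33.4 and 48.6 CPM in dogs 2, 3 and 4, and the groups overlapped. The mean of the insulin libraries was 0.862, 0.685 and 0.544 times the basal value within dogs 2, 3 and 4. The log2 fold change was -0.54 ± 0.18 (SE, adjusted p = 0.681), and it passed in none of the alternatives.

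SLC25A16, linked to the supply of coenzyme A, averaged 2.44 ± 0.288 CPM in insulin libraries (SD, n = 10) and 3.57 ± 0.736 CPM in basal libraries (SD, n = 3). Its insulin mean was 0.816, 0.735 and 0.578 times the basal value within dogs 2, 3 and 4 (log2 fold change -0.51 ± 0.21, SE, adjusted p = 1). SLC25A17, a carrier of cofactors in the peroxisomal membrane, averaged 6.54 ± 1.58 CPM in insulin libraries (SD, n = 10) and 8.94 ± 1.43 CPM in basal libraries (SD, n = 3). Within dogs 2, 3 and 4 its insulin mean was 0.679, 1.07 and 0.542 times the basal value, so dog 3 went the other way. For SLC25A42, a coenzyme A carrier, the insulin over basal difference was -0.33 ± 0.21 on the log2 scale (SE, adjusted p = 1). The insulin mean was below the basal value in all of dogs 2, 3 and 4 for 5 of 37 carriers (SLC25A16, SLC25A27, SLC25A33, SLC25A35 and SLC25A42), against 11.5% of all genes tested. It was above in all of them for 4 carriers (SLC25A5, SLC25A25, SLC25A30 and SLC25A47), against 13.1%.

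SLC25A26, which imports S-adenosylmethionine, averaged 22.9 ± 2.24 CPM in insulin libraries (SD, n = 10) and 22.5 ± 2.57 CPM in basal libraries (SD, n = 3). SLC25A36, another pyrimidine nucleotide carrier, had a log2 fold change of 0.26 ± 0.29 (SE), and its insulin libraries spread from 6.10 to 23.3 CPM, around basal libraries of 8.41 to 8.88 CPM.

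Of the 8 carriers placed in no transport group, 6 were tested and 0 passed in either tool. SLC25A46, an outer membrane protein of mitochondrial shape, averaged 65.7 ± 8.48 CPM in insulin libraries (SD, n = 10) and 61.6 ± 16.5 CPM in basal libraries (SD, n = 3). SLC25A34 averaged 46.6 ± 14.7 CPM in insulin libraries (SD, n = 10) and 48.6 ± 11.7 CPM in basal libraries (SD, n = 3). For SLC25A43 the insulin over basal difference was 0.16 ± 0.18 on the log2 scale (SE, adjusted p = 1).

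By sample number, each insulin sample was set against the same 3 basal libraries. Insulin sample 1 against basal called 0 of 37 carriers in edgeR, 0% of all genes tested, and DESeq2 called 1, SLC25A25, among 40 genes. At an unadjusted p under 0.05 it gave 5 carriers, against 2.99% of all genes: SLC25A25 and SLC25A30 with positive differences, against 1.44%, and SLC25A17, SLC25A27 and SLC25A33 with negative ones, against 1.56%. Insulin sample 2 against basal called 0 of 37, with 0.0479% of all genes called, and DESeq2 called 2, SLC25A25 and SLC25A30, among 73 genes. At an unadjusted p under 0.05 it gave 3 carriers, against 4.95% of all genes: SLC25A25 and SLC25A30 with positive differences, against 2%, and SLC25A16 with a negative one, against 2.95%.

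On the log2 scale, SLC25A25 differed from basal by 2.09 ± 0.44 (SE) in insulin sample 1, with an adjusted p of 0.384, and by 1.81 ± 0.43 (SE) in insulin sample 2, with an adjusted p of 0.400. Without sample 3 of dog 1 the adjusted p was 0.0494 for sample 1 and 0.0422 for sample 2, and without dog 1 it was 0.011 and 0.0117. Without sample 3 of dog 2 it was 0.0443 for sample 2. SLC25A30 had 0.83 ± 0.22 (SE, adjusted p = 0.862) in sample 1 and 0.99 ± 0.22 (SE, adjusted p = 0.332) in sample 2. SLC25A33 had -0.73 ± 0.18 (SE, adjusted p = 0.637) in sample 1 and -0.39 ± 0.18 (SE, adjusted p = 0.955) in sample 2.

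Insulin sample 2 against insulin sample 1 called 0 of 37 carriers in edgeR and in DESeq2, 0% of all genes tested, and 0 had an unadjusted p under 0.05, against 3.38% of all genes. The lowest p was that of SLC25A33, with a log2 difference of 0.34 ± 0.16 (SE, adjusted p = 0.902). Insulin sample 3, from dogs 1 and 2 alone, against the mean of samples 1 and 2 also called 0 of 37 in both tools, 0% of all genes in edgeR. At an unadjusted p under 0.05 it gave 1 carrier, SLC25A24, against 4.59% of all genes. SLC25A24, another ATP-magnesium carrier, had 0.95 CPM in sample 3 of dog 1 and 2.84 CPM in sample 3 of dog 2, and the difference was 1.26 ± 0.43 on the log2 scale (SE, adjusted p = 0.999). Sample 3 of dog 1 lay within the range of insulin samples 1 and 2, and sample 3 of dog 2 above it. The difference was 0.56 without sample 3 of dog 2 and 1.77 without sample 3 of dog 1.

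**Figure D4:**
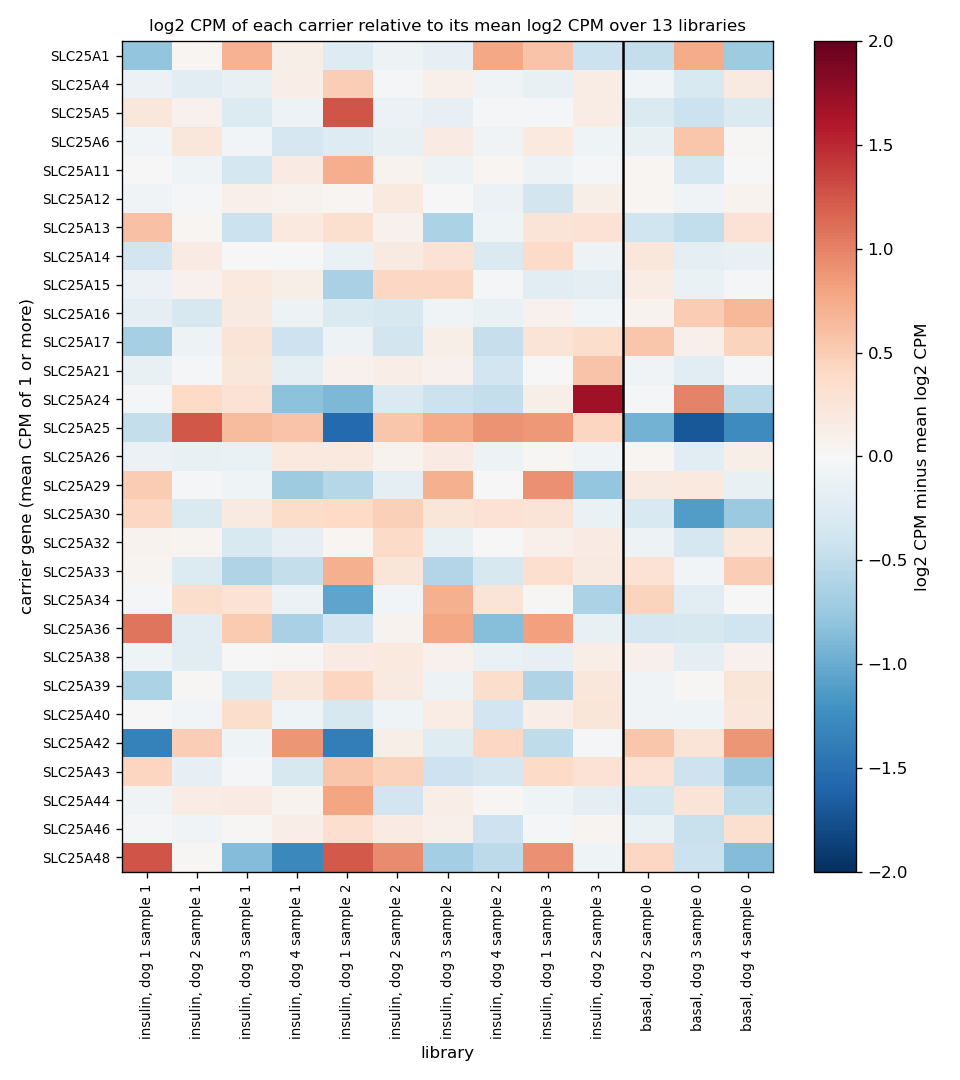
Log2 CPM of 29 of the 30 carriers averaging at least 1 CPM, each minus its mean log2 CPM over the 13 libraries, with insulin libraries left of the line and basal libraries right of it. SLC25A25 is low in the basal libraries and in sample 2 of dog 1 (10.4 CPM), and SLC25A42 and SLC25A48 follow the dog.

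Between dogs, 2 of 37 carriers passed the threshold in edgeR, where 3.13% of all genes tested were called. DESeq2 called 5 carriers among 1335 genes in all. At an unadjusted p under 0.05 edgeR gave 6, against 15.6% of all genes: SLC25A13, SLC25A33, SLC25A36, SLC25A42, SLC25A43 and SLC25A48. The test treats biopsies of 1 dog as replicates, and the labels do not say on which day each biopsy was taken. SLC25A48, linked to choline uptake in human cells, had 5.13, 5.04 and 4.07 CPM in samples 1, 2 and 3 of dog 1. Dog 2 had 2.18, 4.13 and 2.04 CPM in insulin samples 1, 2 and 3 and 2.86 CPM in its basal sample. Dog 3 had 1.18 and 1.34 CPM under insulin and 1.59 CPM at basal. Dog 4 had 0.877 and 1.5 CPM under insulin and 1.18 CPM at basal. Dog 1 was high and dogs 3 and 4 low, and dogs 1 and 2 overlapped in sample 2 of dog 2 alone.

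The adjusted p of SLC25A48 for differences between dogs was 0.00777. It was 0.0625 without sample 1 of dog 1, and 0.053, 0.0708 and 0.0562 without dog 1, dog 2 and dog 4. In RefSeq the gene overlaps IL9 and a long noncoding RNA gene.

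SLC25A42, a carrier of coenzyme A and adenosine nucleotides, had 3.46, 3.37 and 6.20 CPM in samples 1, 2 and 3 of dog 1. Dog 2 had 12.4, 9.55 and 8.59 CPM in insulin samples 1, 2 and 3 and 12.97 CPM at basal. Dog 3 had 8.31 and 7.45 CPM under insulin and 10.5 CPM at basal. Dog 4 had 16.3 and 11.8 CPM under insulin and 16.2 CPM at basal. All libraries of dog 1 lay below those of the other dogs. Separation of 1 dog from all others was seen for 3 carriers, SLC25A13, SLC25A36 and SLC25A42, and for 9.49% of all genes tested.

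The adjusted p of SLC25A42 for differences between dogs was 0.0240. It missed the threshold in 8 of the 13 fits that left out 1 library, with values of 0.0547 to 0.117. These were the fits without insulin sample 1 of dogs 1, 3 and 4, without insulin sample 2 of dogs 2, 3 and 4, and without the basal sample of dogs 2 and 4. It also missed it without dog 1 (0.0665), dog 3 (0.0657) and dog 4 (0.129). Dog 1 also had less of the fast myosin gene MYH1, at 1685 to 3603 CPM against 14584 to 24483 CPM in the other dogs. The fast myosin gene MYH2 averaged 23521.7 CPM in dog 1, against 21031.2, 8652 and 10148.9 CPM in dogs 2, 3 and 4. The slow myosin gene MYH7 averaged 6812 CPM in dog 1, against 8596, 11523.1 and 16420.5 CPM in dogs 2, 3 and 4. The part of fibre makeup in these differences was not tested.

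**Figure D5:**
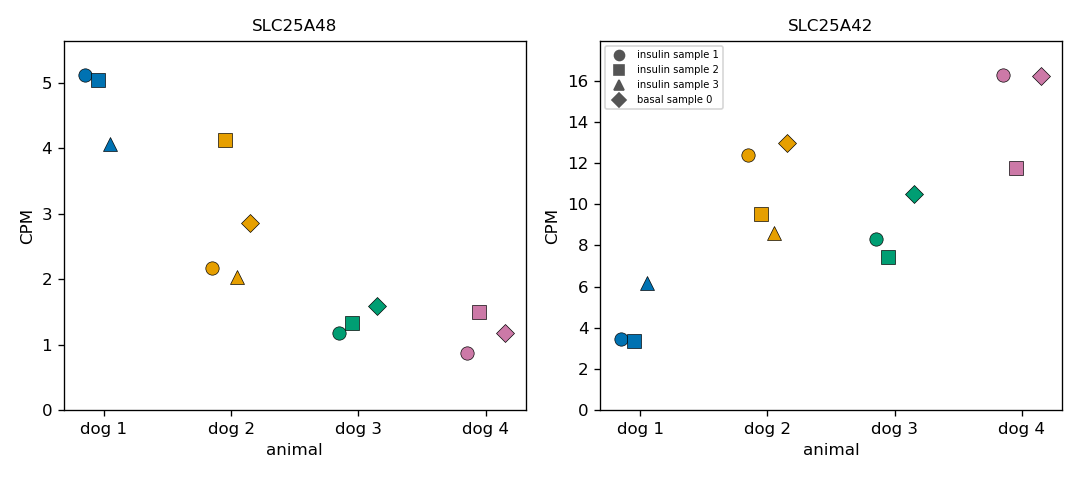
CPM of SLC25A48 and SLC25A42 in each library by dog, with symbols for the sample number. Dog 1 holds 4.07 to 5.13 CPM of SLC25A48, and its libraries of SLC25A42, at 3.37 to 6.20 CPM, lie below those of the other dogs.

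Genes that work beside the carriers, and family members not named SLC25A, were read from 7 lists. Of their tested members, 0 passed for insulin against basal muscle in edgeR. At an unadjusted p under 0.05 these lists gave 1 gene with a positive difference, ACLY, against 1.68% of all genes tested. They gave 1 with a negative difference, UCP3, against 2.44%, and DESeq2 called 1, UCP3 (adjusted p = 0.0185), among 104 genes in all. Among enzymes of the malate-aspartate shuttle, 3 were tested, with a median log2 fold change of 0.07, and GOT1, the cytosolic aspartate aminotransferase, had 0.11 ± 0.19 (SE). The 13 matrix and respiratory chain genes tested had a median of 0.10, the 8 import genes 0.07 and the 3 outer membrane channels 0.01. The 10 partner enzymes of cofactor and amino acid carriers had a median of 0.12. Among them ACLY, which splits the citrate exported by SLC25A1, averaged 13.1 ± 4.09 CPM in insulin libraries (SD, n = 10) and 8.24 ± 3.13 CPM in basal libraries (SD, n = 3), with an adjusted p of 1. The 6 pyruvate carrier and sideroflexin genes had a median of -0.09. The 4 uncoupling and MTCH genes belong to the same family but fall outside the naming rule. Their median was -0.30, with UCP2 at -0.63 ± 0.33 (SE, adjusted p = 1). UCP3, the uncoupling protein of skeletal muscle, had 85.5 to 211 CPM in insulin libraries. All lay below the 284, 399 and 475 CPM of the basal libraries of dogs 2, 3 and 4. This order held for 0.608% of all genes tested. The log2 fold change of UCP3 was -1.0 ± 0.22 (SE, adjusted p = 0.154).

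Markers of other cells varied between libraries too, and their part in the carrier values was not tested. The 7 red blood cell markers summed to 25.0 to 39.8 CPM in insulin libraries and 25.0 to 36.1 CPM in basal libraries, with a median log2 fold change of -1.90 over the 5 tested. Of the 7, 6 averaged under 1 CPM, so that median rests on genes near the floor, and GYPC, which made up most of the sum, had 0.10 ± 0.15 (SE). In edgeR 0 of the red blood cell markers passed, and 2 had an unadjusted p under 0.05 with negative differences, against 2.44% of all genes tested. DESeq2 called 1 among its 104 genes, ALAS2, the haem synthesis enzyme of red cell precursors (adjusted p = 0.0443). The 6 neutrophil markers summed to 23.5 to 65.7 CPM in insulin libraries and 31.9 to 74.3 CPM in basal libraries. Their median log2 fold change was -1.44 over the 5 tested, and 3 of the 6 averaged under 1 CPM. Of these markers 0 passed in either tool. In edgeR 4 had an unadjusted p under 0.05 with negative differences, against 2.44% of all genes tested. Fibroblast markers summed to 299.8 to 1138 CPM in insulin libraries and 214.4 to 2793 CPM in basal libraries. Endothelial markers summed to 60.0 to 266 CPM in insulin libraries and 79.0 to 298 CPM in basal libraries. Adipocyte markers summed to 20.8 to 48.8 CPM in insulin libraries and 19.3 to 86.2 CPM in basal libraries. Macrophage markers summed to 8.38 to 38.3 CPM in insulin libraries and 11.9 to 51.8 CPM in basal libraries. The basal maximum of the neutrophil, fibroblast, endothelial, adipocyte and macrophage sums was the basal sample of dog 3 in each case. No marker was at 0 in every library.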

How the data were processed

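The deposited table holds raw counts per gene and the same counts divided by size factors; per the file headers both are the authors' values. The normalized columns are a signal scaled by the authors, and the factors recovered from them equalled the median of ratios, so only the counts were tested. Bowtie 0.12.2 and the CanFam3.1 build are named in the submitters' processing notes; the counter, annotation and strand setting are not given in the sources used here. Per the labels' protocols, cDNA was made with a SMARTseq v4 kit, which does not mark strand. The table held 0 columns of other samples. The members and gene lists were chosen with earlier results of these data known.

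Counts were fitted in edgeR 4.0.16 (R 4.3.3; filterByExpr, TMM, robust quasi-likelihood), with Benjamini-Hochberg adjustment over 14629 genes and a threshold of 0.05. Insulin against basal had dog and stimulation as terms; the other comparisons had sample number and dog. Libraries that share a dog number come from the same dog, per the labels. Deviations from group means had a median correlation of 0.211 over 15 same-dog pairs and -0.0741 over 47 other pairs. P-values measure the spread between biopsies. Alternatives were DESeq2 1.42.0, its size factors, no low-count filter, no dog block, counts summed per dog, and leaving out each library or dog. Named carriers were the 12 of highest mean CPM, those past the threshold, the 12 of lowest p for insulin against basal and the 4 of lowest p in each other comparison (mean CPM of at least 1), and those below the filter; of the other lists, genes past the threshold and up to 2 of lowest p. The test was checked on simulated data. The counts cover all carriers; values of 1 carrier are not reported here.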

Additional observations from a re-analysis of the deposited data

Results flagged for a closer look

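In 66 checks of a group of 4 or 10 libraries, 8 held a library far from the others by Dixon's criterion, which chance meets in about 1 in 20 groups. Of these, 6 were sample 2 of dog 1. SLC25A4 had 7976 CPM there, against 4874 to 6236 CPM in the other insulin libraries. SLC25A11 had 1487 CPM, against 844 to 944 CPM in the other sample 2 libraries and 704 to 1011 CPM in the other insulin libraries. SLC25A5 had 45.65 CPM, against 17.1 to 18.9 CPM in the other sample 2 libraries and 15.8 to 22.5 CPM in the other insulin libraries. SLC25A44 had 17.07 CPM, against 7.53 to 11.03 CPM in the other insulin libraries. SLC25A26 had 26.01 CPM in sample 1 of dog 4, against 20.4 to 20.9 CPM in the other sample 1 libraries. SLC25A24 had 2.841 CPM in sample 3 of dog 2, against 0.467 to 1.15 CPM in the other insulin libraries.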

How the results depend on the processing

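Only 3 basal libraries, none from dog 1, limit every comparison with basal muscle. The cause of the shifts below was not tested. For insulin against basal, 20 genes were called, against 104 in DESeq2 and 140 without the low-count filter. There were 6 without the replicate block of dogs and 1 with counts summed per dog. Carriers called were 0, against 2 in DESeq2, 2 without the filter and 0 with counts summed per dog. For sample 1 against basal, 0 genes were called, against 4 with DESeq2 size factors, 40 in DESeq2 and 16 without the filter; DESeq2 called 1 carrier. For sample 2 against basal, 7 genes were called, against 73 in DESeq2, 28 without the filter and 0 without the block; carriers called were 2 in DESeq2 and 1 without the filter. For sample 3, DESeq2 called 2 genes. Between dogs, 458 genes were called, against 1335 in DESeq2 and 793 without the filter; DESeq2 called 5 carriers.

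Leaving out a library or dog gave 4 to 28 genes and 0 to 1 carriers for insulin against basal, 0 to 8 genes and 0 to 1 carriers for sample 1, 0 to 13 genes and 0 to 1 carriers for sample 2, and 79 to 625 genes and 0 to 3 carriers between dogs. Some log2 fold changes that had not passed changed sign. Without the block they were -0.0154 for SLC25A12, -0.0491 for SLC25A39, -0.0607 for SLC25A34 and 0.549 for SLC25A48. With libraries left out they ranged from -0.0111 to 0.0889 for SLC25A12, -0.0706 to 0.0904 for SLC25A26, -0.247 to 0.389 for SLC25A34, -0.0427 to 0.573 for SLC25A36, -0.0910 to 0.0871 for SLC25A38, -0.0861 to 0.138 for SLC25A39, -0.0476 to 0.152 for SLC25A4, -0.113 to 0.338 for SLC25A46, and -0.575 to 1.84 for SLC25A25 in sample 3. Of 979 alternative values for single carriers, 909 kept the side of the threshold and, for log2 fold changes, the direction. Only SLC25A42 and SLC25A48 between dogs had passed in the main fit. The values of SLC25A13, SLC25A25, SLC25A36 and SLC25A39 between dogs were added after they had been seen.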

Other observations

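Of 47 genes tested from the 7 lists of partner genes and other family members, 2 passed for differences between dogs in edgeR, NNT and SFXN4. That share was near the 3.13% of all genes tested. NNT, the inner membrane transhydrogenase that makes NADPH, had 377 to 524 CPM in dog 4, against 105 to 299 CPM in the other dogs (adjusted p = 0.00758). SFXN4, a sideroflexin of the inner membrane, had 25.8 to 28.5 CPM in dog 4, against 13.7 to 19.7 CPM in the other dogs (adjusted p = 0.0313). In both, all 3 libraries of dog 4 lay above those of the other dogs. Separation of any 1 dog from all others held for 9.49% of all genes tested. These 2 genes were picked by the test on the same values, so their separation adds no evidence to it. Of 40 cell markers tested, 4 passed in edgeR, against 3.13% of all genes tested. They were MYH1 (adjusted p = 0.00157), MYH2 (0.0143), the neutrophil gene S100A12 (0.00626) and the macrophage gene MRC1 (0.0268). MRC1 had 7.46 to 10.6 CPM in dog 1, against 1.67 to 4.50 CPM in the other dogs.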
